A study of Mus musculus with 24 samples.

Results

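Complement is a cascade of plasma proteins that marks and lyses target cells, and 6 of its genes were examined in cultured mouse lung adenocarcinoma cells. C3, C4b and Cfb encode components of the cascade, and Cd55, Cd59a and Cr1l encode regulators that sit in the cell membrane. The members were chosen by symbol, after values of these data had been seen, and all 6 had a row in both count tables, out of 38937 genes with shRNA and 39310 genes with siRNA libraries. Their levels and differences are therefore given as descriptions with no p-value. How many of them passed a threshold is stated once, only beside the share of all genes that did, and p-values are kept for other genes of the pathway.

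The study asks what the integrated stress response, which starts with phosphorylation of eIF2α, does in lung adenocarcinoma. Bulk RNA-seq was made from 24 libraries in 6 groups of 4, all from lung tumour cells that were sorted as GFP+/CD45- and grown in culture. S/S cells carry eIF2α that can be phosphorylated at its regulatory serine, and A/A cells carry alanine there. The eIF2α genotype is taken from the sample titles: the genotype field names only the knockdown and reads WT for every control library, A/A siControl included. The shRNA table holds 8 libraries of S/S cells, with a control shRNA (S/S shControl) or one against Atf4 (S/S shAtf4), the transcription factor that this response induces. The siRNA table holds 16 libraries, in which each genotype received a control siRNA (siControl) or one against Chchd10 (siChchd10), a gene for a mitochondrial protein. The labels name neither the tumour model, the number of cultures behind each genotype nor whether the libraries of a group were separate cultures. A difference between A/A and S/S cells thus cannot be told apart from a difference between the cultures, and p-values speak only of the spread among the libraries at hand.

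Complement can be started by antibody through C1, C4 and C2 (the classical pathway), by sugars through MASP proteases (the lectin pathway), or by spontaneous turnover of C3 with factor B (the alternative pathway). All of them build enzymes, called convertases, that cut C3 and then C5, after which C6 to C9 assemble the membrane attack complex. Cells protect themselves with membrane proteins, and tumour cells can both make complement proteins and carry such protection. C3 is the component on which the pathways meet, C4b encodes mouse C4, and Cfb encodes factor B, the protease of the alternative convertase. CD55 speeds the decay of convertases, CD59a blocks assembly of the membrane attack complex, and CRRY, the product of Cr1l, is a rodent regulator that acts on C3 and C4 fragments.

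The members lie on 3 chromosomes of GRCm38, all protein-coding. C3 spans chromosome 17, 57203970 to 57228136, on the minus strand. Cfb, at 34856374 to 34862518, and C4b, at 34728380 to 34743882, lie on the same strand of chromosome 17. Cd55 (130439027 to 130462744) and Cr1l (195097382 to 195131586) lie on the minus strand of chromosome 1, and Cd59a (104095801 to 104115354) on the plus strand of chromosome 2. The 250 bases before the annotated transcript start were at hand for 4 of the 6, from RefSeq on GRCm38.p6, and they are shown for 3 genes whose levels differed most between the groups. The order is C3 (chr17:57228137-57228386, minus strand), Cd55 (chr1:130462745-130462994, minus strand) and Cd59a (chr2:104095551-104095800, plus strand). Capitals mark motif matches on either strand.
C3: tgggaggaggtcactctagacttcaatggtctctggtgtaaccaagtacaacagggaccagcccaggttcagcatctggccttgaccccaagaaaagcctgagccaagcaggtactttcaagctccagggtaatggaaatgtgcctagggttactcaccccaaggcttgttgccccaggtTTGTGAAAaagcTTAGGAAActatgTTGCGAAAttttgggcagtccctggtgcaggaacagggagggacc
Cd55: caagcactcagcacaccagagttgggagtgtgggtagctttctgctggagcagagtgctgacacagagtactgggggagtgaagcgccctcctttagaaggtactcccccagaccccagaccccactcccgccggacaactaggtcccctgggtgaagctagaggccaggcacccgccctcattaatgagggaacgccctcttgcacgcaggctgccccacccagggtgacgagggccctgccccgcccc
Cd59a: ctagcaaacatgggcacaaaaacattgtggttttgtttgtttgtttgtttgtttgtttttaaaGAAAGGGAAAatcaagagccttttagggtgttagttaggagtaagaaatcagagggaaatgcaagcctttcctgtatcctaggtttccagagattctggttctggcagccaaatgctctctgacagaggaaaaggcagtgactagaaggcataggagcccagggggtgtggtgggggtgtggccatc

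Motifs of 6 factor families tied to cytokine or stress responses were searched on both strands. The C3 window held 3 matches to the C/EBP motif TTNNGNAA, at -70 to -63, -58 to -51 and -45 to -38 from the start, and these did not overlap. At least 1 such match was present in 36.8% of 32851 windows of this length, and 3 or more in 2.62%. The Cd59a window held 1 match to the interferon-stimulated response element, searched as TTTC and TTTC with 2 bases of any kind between them, on the opposite strand at -187 to -178, and 2.98% of windows held one. The windows of Cd55 and Cr1l held no match to any of the 6. The other motifs and the share of windows with a match were GGG and TTTCC with 2 bases of any kind between them (NF-kB, 1.41%), TTCNNNGAA (STAT, 7.02%), TGATGNAA (C/EBP-ATF response element, 3.45%) and TGACGTCA (cyclic AMP response element, 1.55%). A match is a run of letters and does not show binding.

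**Figure D1:**
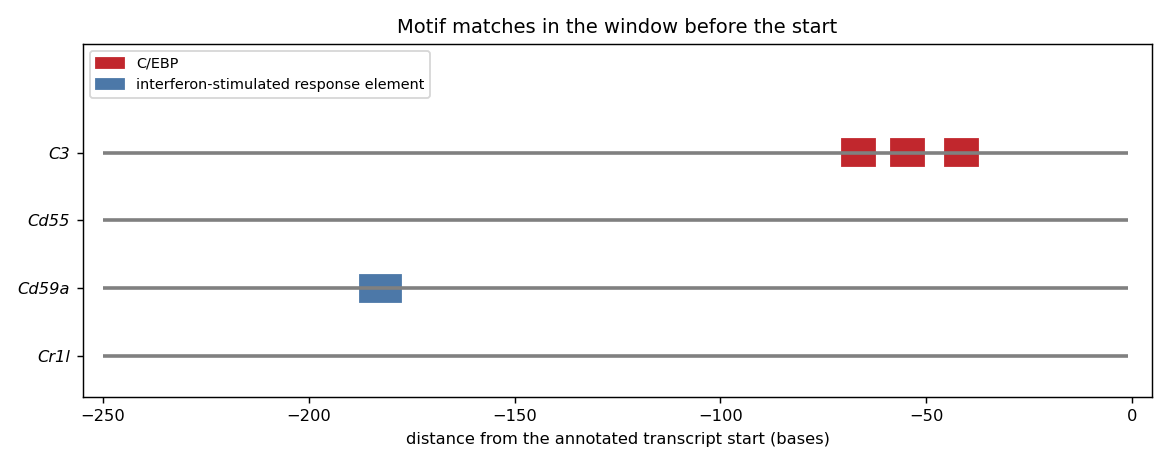
Motif matches in the 250 bases before the annotated transcript start of C3, Cd55, Cd59a and Cr1l. The horizontal axis is the distance from the start in bases, grey lines are the windows searched, red boxes are C/EBP matches and the blue box is an interferon-stimulated response element match. The 3 boxes of C3 lie between -70 and -38, and 1 box lies in Cd59a.

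Total counts per library, divided by 1e6, were 14.1 to 70.9 for the shRNA and 42.9 to 75.4 for the siRNA libraries. Expression is given as CPM, counts per 1e6 after TMM scaling, and means carry the SD over 4 libraries. The targeted genes were lower in every knockdown library: Atf4 averaged 679 CPM in S/S shControl and 271 CPM in S/S shAtf4, and Chchd10 went from 42.6 to 6.30 CPM in S/S and from 8.93 to 1.83 CPM in A/A cells. Of the 7 epithelial and lung markers, Krt8, Krt18, Krt19 and Cdh1 were present throughout, and Epcam averaged 8.93 to 36.7 CPM in the S/S groups but 1.44 and 2.57 CPM in A/A siControl and A/A siChchd10. The lung lineage factor Nkx2-1 had no count in the shRNA table. It averaged 37.4 CPM in S/S siControl, 35.1 in S/S siChchd10, 115 in A/A siControl and 131 in A/A siChchd10. Sftpc reached at most 4.23 CPM, in an A/A siChchd10 library. Between A/A and S/S siControl cells, 3 of these 7 markers were higher and 4 lower in the edgeR test given below, which 70.2% of all genes passed. The leukocyte marker Tyrobp had no count in any library, and Ptprc, Adgre1 and Cd3e had none in the shRNA table. Summed CPM of all 10 leukocyte markers ranged from 20.9 to 79.3 in the shRNA groups, 41.9 to 50.9 in the S/S siRNA groups and 64.9 to 79.6 in the A/A groups, most of it Cd14. The 7 fibroblast markers summed to 2.23 to 18.4 CPM, and the 7 endothelial markers to 7.96 to 12.95 CPM. Principal components were computed on the 1000 most variable genes of each table. A first component with 46.9% of their variance set library 4 of both shRNA groups (46.0 and 36.1) apart from the others (-20.6 to -5.47). A/A siControl library 1 lay nearest the S/S side on the first component of the siRNA table (36.6, against 59.2 to 66.9 in the other 3). It held 6.29% of the S/S siControl amount of 4 RNAs that mark S/S cells (20 CPM or more in every S/S library, 0.1 or less in every A/A siChchd10 library), and the other 3 held 0 to 0.933%. Results of complement genes that moved by over 1.5 times without one of these libraries are given with and without it, and the part of the marker sums in the results was not tested.

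C3 was abundant in S/S cells, low in A/A cells, and higher after siChchd10 in both. Its levels in S/S siControl libraries 1 to 4 were 147, 94.8, 115 and 128 CPM (121 ± 21.9, n = 4). They were 309, 291, 216 and 264 CPM in S/S siChchd10 (270.1 ± 40.1), all above the 4 controls. The A/A siControl libraries had 13.9, 5.22, 4.72 and 4.28 CPM (7.02 ± 4.58), with library 1 standing above the other 3. The A/A siChchd10 libraries had 59.1, 57.8, 51.1 and 42.5 CPM (52.6 ± 7.62), above every A/A control and below every S/S library of the siRNA table. The ratio of siChchd10 to siControl means was 2.23 for S/S (1.16 on the log2 scale, SE 0.248) and 7.50 for A/A cells (2.88, SE 0.311), and the log2 effects differed by 1.73 (SE 0.397). Without A/A siControl library 1 the C3 mean in that group was 4.74 ± 0.467 CPM (n = 3), the A/A effect was 3.48 (ratio 11.1) and the difference of effects was 2.32. C3 in A/A cells stood at 5.80% of the S/S level with siControl (-4.09, SE 0.311), or 3.91% (-4.67) without that library, and at 19.5% with siChchd10 (-2.36, SE 0.260). C3 was thus higher with siChchd10 in both genotypes, and A/A cells with siChchd10 lay below S/S controls. In bulk samples, fewer cells that express a gene and less RNA per cell cannot be told apart, here and below.

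Cfb was higher with siChchd10 by a similar factor in both genotypes, but its order between genotypes was the opposite of that of C3. The S/S siControl libraries had 18.0, 14.5, 16.2 and 17.7 CPM (16.6 ± 1.61), and S/S siChchd10 had 34.9, 33.0, 29.6 and 33.6 CPM (32.8 ± 2.29). The A/A siControl libraries had 51.0, 54.1, 52.0 and 51.4 CPM (52.1 ± 1.38), and A/A siChchd10 had 91.5, 98.7, 99.0 and 87.4 CPM (94.1 ± 5.66). No 2 of these 4 groups overlapped, and the 4 stood in the order in which they are given. The log2 fold change after siChchd10 was 0.98 (SE 0.0617) in S/S and 0.85 (SE 0.0554) in A/A cells, a difference of -0.13 (SE 0.0827). A/A cells held 3.14 times the S/S level with siControl (1.65, SE 0.0609) and 2.87 times with siChchd10 (1.52, SE 0.0571). Cfb shares 6107 bases on its own strand with the annotated readthrough gene Gm20547, which had no row in either table, so how its reads were assigned is unknown.

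C4b was near the limit of detection everywhere and entered no fit. Its highest level was 0.413 CPM, in S/S shControl library 1. Over 4 libraries it had 26 counts in S/S siControl, 42 in S/S siChchd10, 11 in A/A siControl and 3 in A/A siChchd10. From the summed counts, S/S siChchd10 stood at 1.60 times S/S siControl (95% interval 0.960 to 2.72) and A/A siChchd10 at 0.243 times A/A siControl (0.0435 to 0.919). The intervals cover counting error only, from reads without molecular identifiers. C4b shares 15.2% of its 100-base windows with its neighbour C4a, so low counts of either gene are uncertain.

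**Figure D2:**
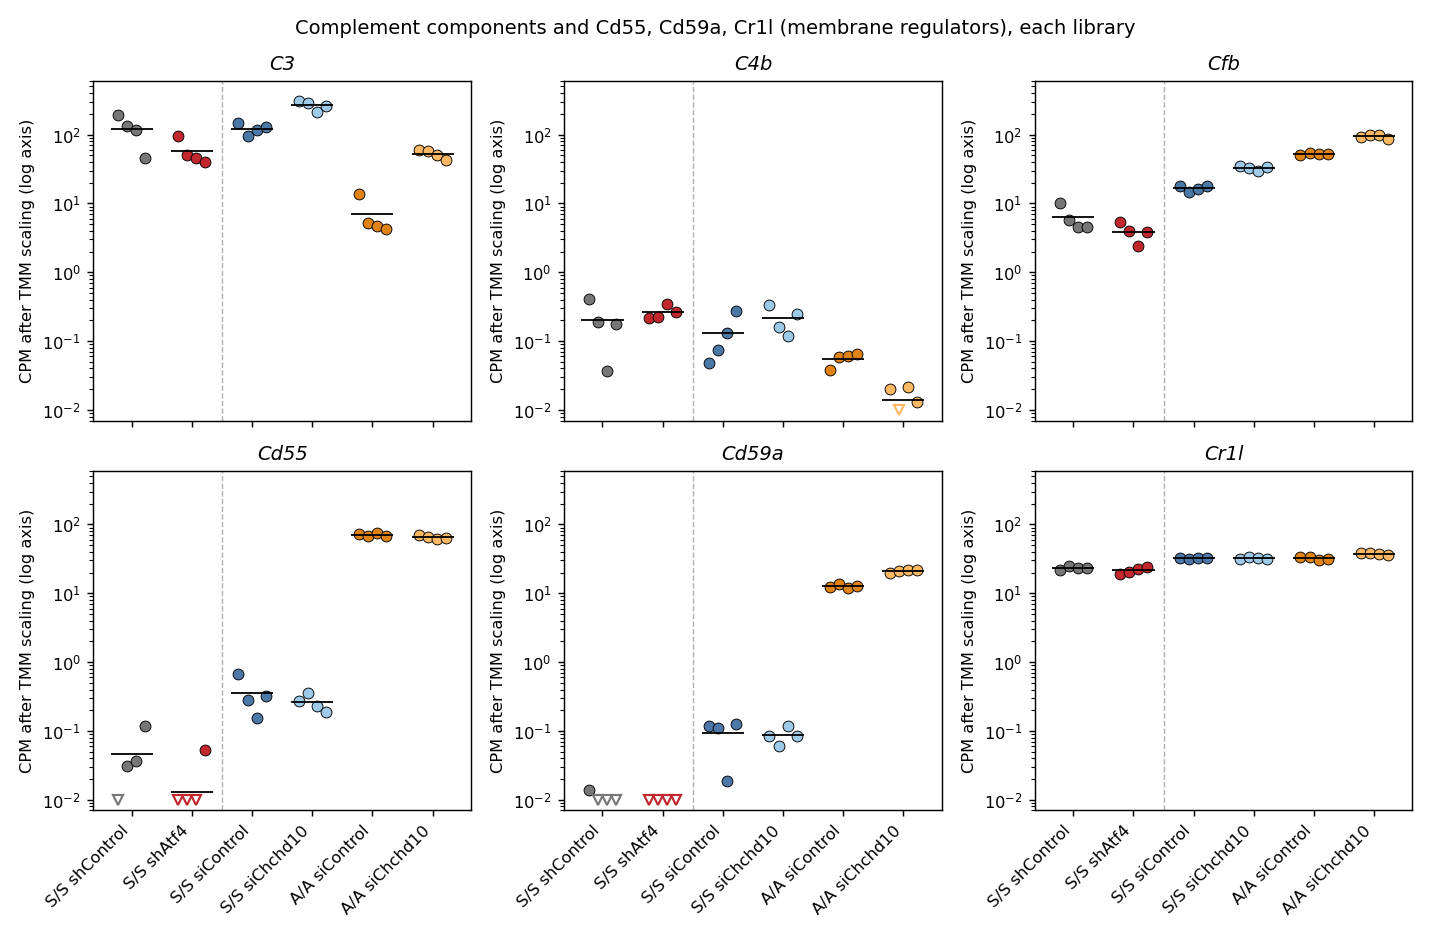
Levels of the 6 genes in each of the 24 libraries, as CPM after TMM scaling on a log axis, with libraries 1 to 4 from left to right in each group. Bars are group means of 0.01 CPM or more, hollow triangles at 0.01 are libraries without a count, and the dashed line separates the shRNA from the siRNA table. Cd55 and Cd59a stand above 10 CPM only in A/A groups, C3 is lowest in A/A siControl, and Cr1l stays between 19.2 and 38.3 CPM.

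Cd55 had few counts in S/S cells and many in A/A cells, and its levels with and without siChchd10 overlapped. The S/S siControl libraries had 0.662, 0.278, 0.152 and 0.320 CPM, and the S/S siChchd10 libraries 0.271, 0.359, 0.234 and 0.188 CPM. The A/A siControl libraries had 72.0, 69.0, 74.8 and 67.8 CPM (70.9 ± 3.14), and A/A siChchd10 had 70.3, 64.6, 62.5 and 63.6 CPM (65.3 ± 3.49). Every A/A library was above every S/S library, and within each genotype the siRNA groups overlapped. The A/A to S/S ratio of means was 201 with siControl (7.70, SE 0.123) and 248 with siChchd10 (7.94, SE 0.128). The S/S side of these ratios rests on 66 and 52 counts. The siChchd10 effect was -0.36 (SE 0.322) in S/S and -0.12 (SE 0.0645) in A/A cells, which differed by 0.24 (SE 0.327). Cd55 shares 4.19% of its 100-base windows with its paralog Cd55b.

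Cd59a showed the same split between genotypes and, in A/A cells, was also higher after siChchd10. It had 18 counts in S/S siControl (0.118, 0.111, 0.0190 and 0.128 CPM) and 17 in S/S siChchd10 (0.0833, 0.0598, 0.117 and 0.0835 CPM). The A/A siControl libraries had 12.4, 13.8, 12.1 and 12.8 CPM (12.7 ± 0.734), and A/A siChchd10 had 19.7, 21.3, 21.7 and 21.5 CPM (21.1 ± 0.889). The 4 A/A siChchd10 libraries lay above the 4 A/A controls, and all 8 lay above every S/S library. The A/A to S/S ratio was 136 with siControl (7.08, SE 0.157) and 245 with siChchd10 (7.89, SE 0.149). The siChchd10 effect was 0.73 (SE 0.0725, ratio 1.65) in A/A and -0.09 (SE 0.437) in S/S cells, where counts were too few to place it, and the difference of effects was 0.82 (SE 0.455).

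Cr1l, the third membrane regulator, was nearly level across the same groups. The S/S siControl libraries had 32.4, 31.0, 33.0 and 32.6 CPM, and S/S siChchd10 had 31.8, 33.9, 32.8 and 31.5 CPM. The A/A siControl libraries had 33.5, 33.2, 30.1 and 31.7 CPM, and A/A siChchd10 had 38.2, 38.3, 37.4 and 36.1 CPM. The first 3 groups overlapped and the last lay above all of them. The log2 fold change after siChchd10 was 0.01 (SE 0.0455) in S/S and 0.22 (SE 0.0450) in A/A cells, and the A/A to S/S difference was -0.01 (SE 0.0455) with siControl and 0.21 (SE 0.0449) with siChchd10.

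With shAtf4 in S/S cells, the libraries of every member overlapped those of shControl, while C3 and Cfb were lower in shAtf4 in each of the 4 same-numbered pairs. C3 measured 192, 133, 118 and 45.6 CPM in S/S shControl and 93.9, 51.2, 45.1 and 39.5 CPM in S/S shAtf4. The 2 groups overlapped through shControl library 4, and the log2 fold change was -1.09 (SE 0.415), or -1.23 without library 4 of both groups and -1.01 with the library number as a block. Cfb measured 10.2, 5.82, 4.58 and 4.50 CPM in shControl and 5.41, 3.94, 2.41 and 3.84 CPM in shAtf4, with a log2 fold change of -0.71 (SE 0.330), or -0.86 without both libraries and -0.65 with the block. Leaving out shControl library 1, the highest of its group, gave -0.79 for C3 and -0.36 for Cfb. Cr1l measured 21.8, 24.9, 23.0 and 23.1 CPM in shControl and 19.2, 20.4, 22.8 and 24.2 CPM in shAtf4 (-0.10, SE 0.111). Cd55 had 5 and 3 counts and Cd59a 1 and 0 counts over the 4 libraries, too few for a fold change. C4b had 46 and 30 counts, a ratio of 1.05 (95% interval 0.642 to 1.70).

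**Figure D3:**
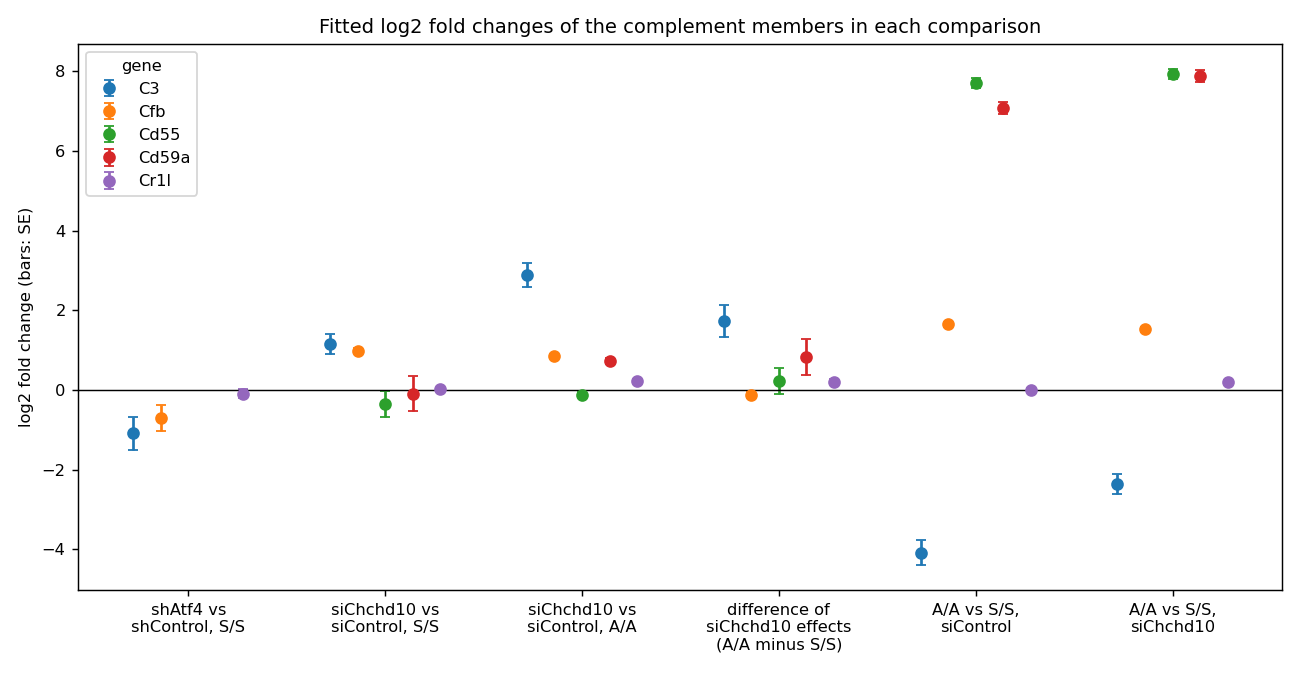
Fitted log2 fold changes of C3, Cfb, Cd55, Cd59a and Cr1l in each comparison. Points are edgeR estimates and bars are SE. C4b entered no fit, and Cd55 and Cd59a entered none in the shRNA table. Cd55 and Cd59a stand at 7.08 to 7.94 in the comparisons of A/A with S/S cells, where C3 stands at -4.09 and -2.36.

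Against the whole tables, many other genes moved too. After shAtf4, 0.538% of 14697 tested genes passed an adjusted p of 0.05 (edgeR quasi-likelihood test, Benjamini-Hochberg over all genes), and 0 of the 3 tested members did. Of all genes 0.15% were higher and 0.388% lower. That fit had no replicate block. With the library number as a block 20.2% of all genes passed, and the members are not counted in the fit with the block. The siRNA fit covered 18138 genes and 5 of the members. After siChchd10, 28% of genes passed in S/S cells (15% higher, 13% lower) and 2 of the 5 members, C3 and Cfb, did. In A/A cells 53.7% passed (26.5% higher, 27.2% lower), with 4 of the 5 members, all but Cd55. The effects of siChchd10 differed between genotypes for 35.6% of genes (16.7% higher, 18.9% lower in A/A) and for C3 and Cr1l. Between A/A and S/S cells 70.2% passed with siControl (35.6% higher, 34.7% lower), as did 4 of the 5 members, all but Cr1l. With siChchd10 70.5% passed (34.7% higher, 35.8% lower), as did all 5 that were tested. Libraries of the groups did not overlap for 6.79% of genes after shAtf4, 25.5% and 49.9% after siChchd10 in S/S and A/A cells, and 64.6% and 63.7% between the genotypes. Cd59a entered the siRNA fit through A/A libraries, where it was high, with at most 0.128 CPM in any S/S library of that table. These contrasts chose the members, so nothing is read from their counts.

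Levels of different genes were compared only as CPM per kilobase of exon. In S/S siControl the order was C3 (23.6 ± 4.25), Cfb (5.88 ± 0.570), Cr1l (3.12 ± 0.0836), then Cd55 (0.0727 ± 0.0449), Cd59a (0.0519 ± 0.0279) and C4b (0.0233 ± 0.0180), and these last 3 overlapped. In A/A siControl it was Cfb (18.4 ± 0.487), Cd55 (14.6 ± 0.647), Cd59a (7.04 ± 0.405), Cr1l (3.10 ± 0.151), C3 (1.37 ± 0.890) and C4b (0.00978 ± 0.00212). With siChchd10 the A/A order put Cfb (33.3 ± 2.00) first, then Cd55 (13.5 ± 0.720), Cd59a (11.6 ± 0.491) and C3 (10.2 ± 1.48), the last pair overlapping, then Cr1l (3.63 ± 0.0959). C3 thus led the members in S/S cells and stood 5 of 6 in A/A controls. In S/S shControl C3 (23.7 ± 11.7) led as well, followed by Cr1l (2.24 ± 0.125) and Cfb (2.22 ± 0.952), which overlapped.

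The genes most like each member were found by Pearson correlation of log2 CPM over the 16 siRNA libraries, among 11243 genes, as a description. On the 1000 most variable genes, the axis between genotypes held 92.9% of the variance. Such correlations can therefore mostly follow the split of S/S from A/A libraries. Cd55 was nearest to Fut4 (0.996), Pdx1 (0.996) and Rab27a (0.996), and Pdx1 averaged 4.32 CPM in S/S siControl and 76.5 in A/A siControl. Cd59a was nearest to Cebpd (0.997), Bfar (0.996) and Sptlc2 (0.996). C3 was nearest to Apob (0.994), Ctnnb1 (0.988) and Gc (0.985), and Apob averaged 488 and 1169 CPM in S/S cells and 29.2 and 188 CPM in A/A cells with siControl and siChchd10. Cfb was nearest to Elapor1 (0.997), Crb3 (0.993) and Slc39a4 (0.993), and Cr1l to Coa5 (0.952), Cdsn (0.936) and Mreg (0.922).

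The rest of the pathway was followed in a list of 54 other complement genes, of which 23 were tested in the siRNA table. Between A/A and S/S siControl cells 17 rose, 3 fell and 3 did not pass, beside 70.2% of all genes, with a list median of 0.74 against 0.01 for all genes. The 3 that fell were Masp2, Cfd and Itgb2. The filter on low counts kept Masp2, Cfd and Itgb2 through S/S libraries, and C9 and C1rb through A/A siChchd10 libraries, where each was high. Which genes were counted thus depends on the groups compared, and the changes of these genes are given as description. Among the 9 tested initiators of the classical and lectin pathways 7 rose and 1 fell, Masp2, from 0.421 to 0.144 CPM (-1.52). Masp2, C1rb, Colec11 and Cfd stayed under 1 CPM and are named after their values were seen. C2, the partner of C4 in the classical convertase, rose from 0.421 ± 0.132 to 16.4 ± 1.81 CPM (5.25, SE 0.139, adjusted p = 1.16e-22). C2 shares 19439 bases on its own strand with Gm20547 and 17385 bases on the opposite strand with Zbtb12. How its reads were assigned is thus unknown, as for Cfb. C1s1, a C1 protease gene, rose from 2.16 to 19.1 CPM (3.15, adjusted p = 1.81e-18), C1ra by 2.09, C1rl by 1.46 and C4a by 1.74. Masp1, a protease gene of the lectin pathway, rose by 0.18, from 164 to 185 CPM (adjusted p = 0.000373), and Colec11, a lectin gene under 1 CPM, did not pass (-0.02, adjusted p = 0.943).

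Of the alternative and terminal pathway, 3 of 5 tested genes rose in A/A siControl and 1 fell, Cfd, the gene for factor D, which cuts factor B (-2.03, from 0.566 to 0.136 CPM). Beside each count in this comparison, leukocyte markers included, 70.2% of all genes passed (35.6% higher, 34.7% lower), so the counts are given as description. Hc, which encodes C5, rose from 0.288 ± 0.0300 to 8.36 ± 0.506 CPM (4.86, adjusted p = 4.97e-23), while Cfp, the gene for properdin, rose by 0.51 and C8g by 0.74. All 5 tested soluble regulators rose, among them C4bp, a cofactor gene acting on C4 fragments, from 1.75 to 21.9 CPM (3.66, adjusted p = 6.34e-22), Cfi, the protease that cleaves C3 and C4 fragments, from 11.6 to 65.2 CPM (2.50, adjusted p = 1.03e-20), Cpn1 by 0.24 and Clu by 0.14. Of the other membrane regulators both tested genes rose, Cd59b, the neighbour and paralog of Cd59a, by 3.45 from 0.257 to 2.86 CPM, and Cd46 by 0.55. Itgb2, the shared chain of complement receptors 3 and 4, fell by 4.45 from 1.69 to 0.0726 CPM, with a value of -5.53 without A/A siControl library 1. S/S siControl does not stand for all S/S cells. Cfi averaged 0.152 CPM in S/S shControl against 11.6 in S/S siControl, Cpn1 0.254 against 34.9, and Itgb2 11.8 against 1.69. The difference between these S/S control groups was not tested. C3ar1, the receptor gene for C3a, did not pass (0.21, adjusted p = 0.0707). Leukocyte markers moved in both directions between S/S and A/A siControl: 6 were tested, and 3 were higher and 2 lower in A/A. Csf1r (1.67 in S/S and 0.123 CPM in A/A) and Fcgr3 (1.33 and 0.149 CPM) were lower. Cd14 (40.8 and 63.5 CPM), Cd79a (0.205 and 0.452 CPM) and Lyz2 (4 and 20 counts) were higher. The part of these markers in the Itgb2 fall was not tested. The Cd46 rise did not pass without S/S siControl 4 (0.40) or A/A siControl 1 (0.46). The Clu rise did not pass by DESeq2 (0.13), with the size factors of DESeq2 in edgeR (0.13), or without any of S/S siControl 1, 2 or 3 or A/A siControl 2 or 3 (0.12 to 0.14). With siChchd10, 15 of the 23 were higher in A/A than in S/S cells and 3 lower, beside 70.5% of all genes, with a list median of 0.80 against -0.01.

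**Figure D4:**
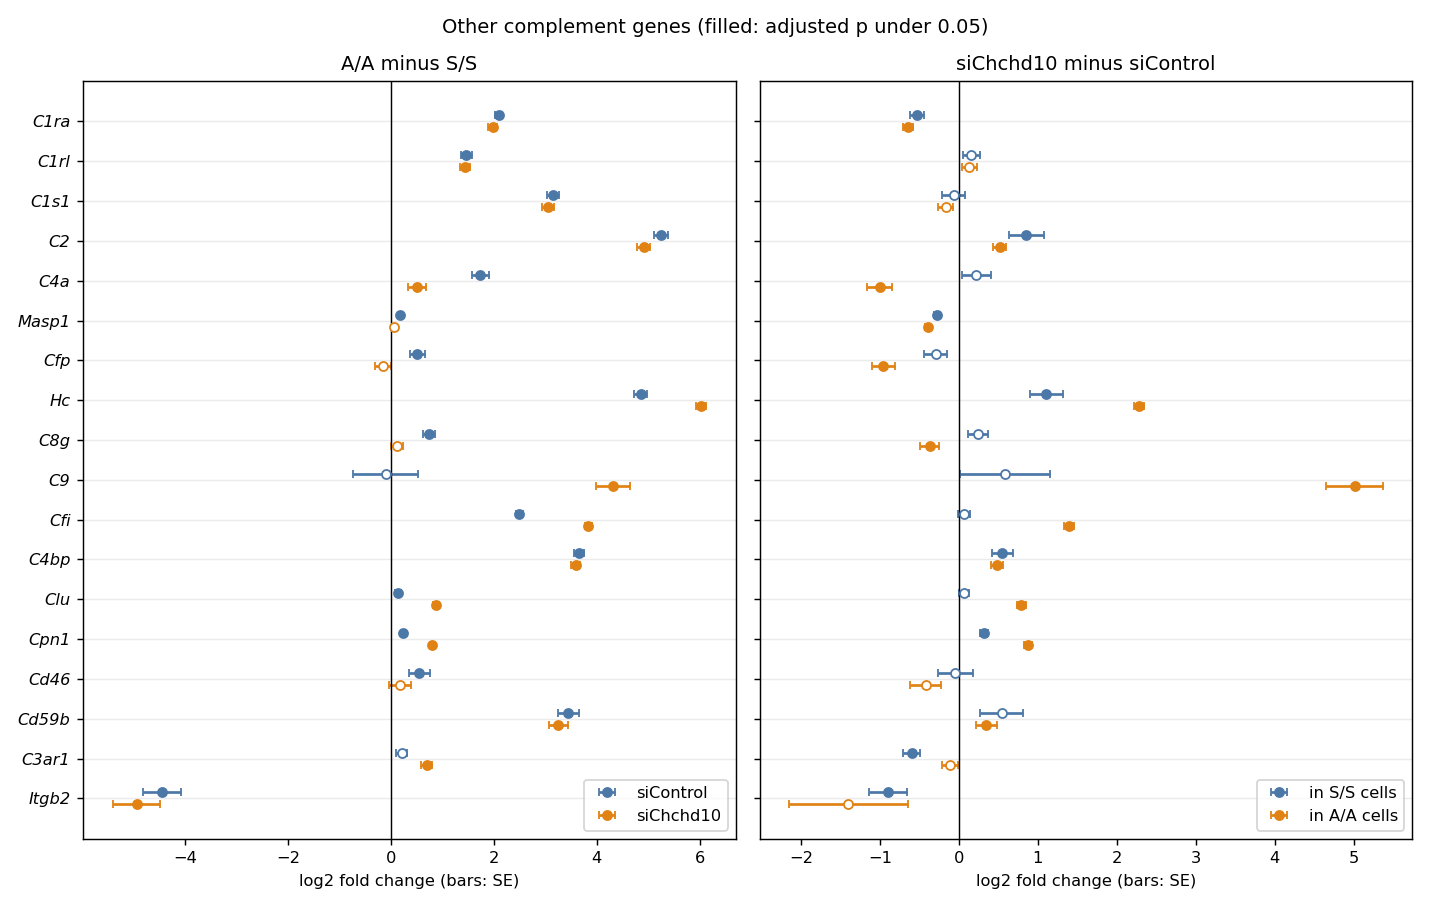
Log2 fold changes of 18 other complement genes that passed the test in at least 1 comparison and reached 1 CPM in a group. The left panel gives A/A minus S/S with each siRNA, and the right panel siChchd10 minus siControl in each genotype. Bars are SE and filled points passed an adjusted p of 0.05. Hc stands at 4.86 and 6.03 in the left panel, and C9 at 5.01 in A/A cells in the right panel.

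After siChchd10, 4 of the 23 rose and 4 fell in S/S cells, beside 28% of all genes (list median 0.06, all genes 0.00). The rises were Hc (1.11, adjusted p = 0.000156), C2 (0.85, adjusted p = 0.00450), C4bp (0.55, adjusted p = 0.00195) and Cpn1 (0.31, adjusted p = 3.25e-05), and the falls were Itgb2 (-0.90), C3ar1 (-0.60), C1ra (-0.53) and Masp1 (-0.28). In A/A cells 9 rose and 5 fell, beside 53.7% of all genes (list median 0.07, all genes -0.01). C9, the pore-forming subunit of the membrane attack complex, rose from 0.0901 ± 0.0524 to 3.00 ± 0.982 CPM (5.01, SE 0.358). It had 19 counts in S/S siControl, 29 in S/S siChchd10, 18 in A/A siControl and 655 in A/A siChchd10. C9, like C1rb, thus entered the fit only through the libraries where it was high, so no p-value is given for it. Hc rose from 8.36 to 40.6 CPM (2.28, adjusted p = 2.63e-20) and Cfi from 65.2 to 171 CPM (1.39, adjusted p = 1.14e-15). Clu, whose product clusterin binds terminal complexes, rose from 2708 to 4682 CPM (0.79, adjusted p = 6.51e-12), with rises of Cpn1 (0.88), C2 (0.52), C4bp (0.48), C1rb (1.59) and Cd59b (0.34). The A/A falls were C4a (-1.01), Cfp (-0.96), C1ra (-0.65), Masp1 (-0.39) and C8g (-0.37). The Cd59b rise did not pass without any of A/A siControl 1 or 4 or A/A siChchd10 1 or 2 (0.30 to 0.34) or with scaling by library totals (0.31), and the C8g fall did not pass without A/A siControl 3 (-0.26).

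The effect of siChchd10 differed between genotypes for 9 of the 23, beside 35.6% of all genes, 6 with a more positive effect in A/A cells and 3 with a more negative one. The effect was more positive for C9 (difference 4.43, SE 0.788), Cfi (1.33, SE 0.0957, adjusted p = 1.36e-10), Hc (1.18), Clu (0.73), Cpn1 (0.57) and C3ar1 (0.49). The C9 value is a description, since C9 was kept only through A/A siChchd10. C4a (-1.23), Cfp (-0.66) and C8g (-0.62) differed in the other direction, and C3ar1 fell in S/S cells without passing in A/A cells (-0.11). The list median was -0.07, or -0.09 when C1rb, which had no count in S/S siChchd10, is left out.

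After shAtf4, 0 of 14 tested genes of the list passed by edgeR without a replicate block, beside 0.538% of all genes, and 3 had an unadjusted p under 0.05 (list median -0.28, all genes -0.0049). In the shRNA table libraries with the same number deviated together, and with the number as a block 3 of the 14 fell, beside 20.2% of all genes in the same fit, a share close to that of the list. Among them were Itgb2, with 11.8 and 6.88 CPM (-0.81, adjusted p = 0.434, and -0.82 with the block, adjusted p = 0.000276), and Serping1, the C1 inhibitor gene, with 1.03 and 0.319 CPM (-1.85, adjusted p = 0.318, and -1.44 with the block, adjusted p = 0.0294). Serping1 was chosen after its values were seen. The same 3 passed without library 4 of both groups (3 of 15, beside 11.7% of all genes). Without shControl library 4 alone 2 of 17 passed, Serping1 among them, beside 3.56% of all genes, and by DESeq2 1 of 23 passed, beside 2.53%. Over 14 settings the adjusted p ranged from 0.000276 to 0.822 for Itgb2, and over 11 settings from 0.0260 to 0.565 for Serping1.

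Complement genes are commonly induced by cytokines, and 18 genes for factors of that response and of liver-type expression were tabulated. Between A/A and S/S siControl cells 7 rose and 11 fell, beside 70.2% of all genes, with Onecut1 (-4.14, from 0.924 to 0.0479 CPM), Cebpd (3.50, from 3.55 to 40.04 CPM, adjusted p = 7.93e-27) and Irf7 (-1.41) the 3 largest. Onecut1 had 10 counts in A/A siControl, with a highest library of 0.170 CPM and a median of 0.0107 CPM. Its A/A mean thus rests mostly on that library, and no value without it is given. After siChchd10 in S/S cells 9 rose and 4 fell, beside 28% of all genes, with Irf7 (-1.72) and Irf9 (-0.71) changing most. In A/A cells 8 rose and 4 fell, beside 53.7% of all genes, led by Irf7 (-1.12), Stat2 (-1.11) and Cebpa (0.80). With siChchd10, 8 were higher and 9 lower in A/A than in S/S cells, beside 70.5% of all genes. Onecut1 (-5.03), Cebpd (3.77) and Cebpb (-1.98) led. After shAtf4, 0 of 16 tested factors passed by edgeR without a replicate block, beside 0.538% of all genes, and 2 had an unadjusted p under 0.05. With the block 20.2% of all genes passed, and the factors are not counted in that fit. Their part in the levels of the complement genes was not tested.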

How the data were processed

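The authors deposited whole-number read counts per gene, not normalised, as 1 table of 8 shRNA libraries and 1 of 16 siRNA libraries, and each was tested on its own. Per the labels' protocols, Trizol RNA was made into TruSeq Stranded Total RNA libraries and sequenced on a NovaSeq, with the molecule given as polyA RNA. The build mm10 and DESeq2 1.24.0 are named per the submitters' processing notes, while the aligner, counter and strand setting were not given in the sources used here. The counts were filtered with filterByExpr, scaled by TMM and fitted with the robust quasi-likelihood test of edgeR 4.0.16 (R 4.3.3), all groups of a table sharing 1 fit, and p-values were adjusted by Benjamini-Hochberg over all tested genes (threshold 0.05). The SE is the log2 fold change divided by the square root of F.

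DESeq2 1.42.0, other scalings, no filter, a replicate block, only the groups compared and each library left out were alternatives. In the shRNA table same-numbered libraries correlated in their deviations from the group means (0.241 to 0.789 in all 4 pairs), so the block value stands beside results it changes. The members and lists were chosen with earlier results of these data known. Other complement genes were named where they passed in at least 1 comparison and reached 1 CPM in a group, and of the cytokine response factors up to 3 per comparison. Some genes that these rules gave are not reported here. Genes most like a member were the 3 with the highest correlation. Gene models are GENCODE on GRCm38 and sequences RefSeq on GRCm38.p6. Fits were checked on simulated counts. Each column matched 1 sample by name.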

Additional observations from a re-analysis of the deposited data

Results flagged for a closer look

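Among 93 gene and group pairs of 4 libraries, 7 had 1 library far from the other 3 by Dixon's ratio (over 0.829), and chance flags about 1 in 20. Among the members these were C3 in A/A siControl 1 (13.9 CPM, others 4.28 to 5.22) and Cd59a in A/A siChchd10 1 (19.7 CPM, others 21.3 to 21.7). Among other complement genes they were C1ra in A/A siControl 1 (16.4 CPM, others 17.7 to 17.8) and Hc in A/A siChchd10 2 (44.5 CPM, others 38.9 to 39.7). The remaining 3 were C4bp in S/S siControl 1 (2.29 CPM, others 1.49 to 1.62) and Clu in library 4 of S/S siControl (2740 CPM, others 2320 to 2370) and of S/S siChchd10 (2810 CPM, others 2470 to 2480).

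The log2 effect of siChchd10 differed between A/A and S/S cells, by the edgeR interaction test, for 9 of 23 other complement genes. Of all genes tested 35.6% passed, so the count is not read as a trait of complement genes. It was higher in A/A cells for C9 (4.43), Cfi (1.33), Hc (1.18), Clu (0.73), Cpn1 (0.57) and C3ar1 (0.49), and lower for C4a (-1.23), Cfp (-0.66) and C8g (-0.62).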

How the results depend on the processing

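The counts of other complement genes past the threshold stayed within 1.5 times their value in all 5 siRNA comparisons under every alternative run. Leaving out 1 library gave 8 to 9 genes for siChchd10 in S/S, 13 to 15 in A/A, 9 to 10 for the difference, 19 to 20 for A/A against S/S with siControl and 18 with siChchd10. After shAtf4 the count was 0, with 1 by DESeq2, 3 with the replicate block, 0 to 2 with 1 library left out (2 without S/S shControl 4) and 3 without both libraries numbered 4, the last chosen after seeing the data. The genes called in the whole table moved too, from 79 to 462 by DESeq2, 2969 with the block, 13 to 536 with 1 library left out and 1726 without both libraries. In the siRNA table same-numbered libraries did not deviate together (-0.09 to 0.157), and the replicate block gave 8, 14, 10, 20 and 18 genes against 8, 14, 9, 20 and 18. No gene that passed turned its direction. Over all settings 1492 values of named genes kept their side of the threshold, 16 lost it and 10 gained it, while 397 member values moved by less than the spread between libraries and 29 by more. Scaling by library totals moved the median of all genes by at most 0.0311 on the log2 scale. Depth limits C4b everywhere, and Cd55 and Cd59a in S/S cells.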
